A study of Mus musculus with 4 samples.

Results

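The genes described here are 10 inhibitory checkpoint and exhaustion genes of lymphocytes and of the cells that face them: Pdcd1, Cd274, Pdcd1lg2, Lag3, Havcr2, Tigit, Btla, Cd160, Tox and Vsir. They were chosen by name, with earlier results of these data known, and all 10 were found among the 54752 genes of the count table. RNA was sequenced from mouse abdominal aortic grafts 4 weeks after transplantation, after removal of ribosomal RNA. The ALLO group held allografts, which the series title places under chronic rejection, and the ISO group held grafts for which no longer name is given; each group had 2 libraries (n = 2 for every mean and SD below). No strain, sex, age, drug or genetic change is stated for either group. The labels tie no library to an animal, and p-values here reflect the spread between these samples alone. Sex-linked counts, given below, differed between the ISO libraries, which were thus not repeats of one RNA sample, while in ALLO the spread may be technical. Immunoglobulin genes held 11.2% and 3.08% of the counts in ALLO replicates 1 and 2, and the source of that spread was not tested.

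Checkpoint receptors are surface proteins that dampen lymphocytes after activation. PD-1, LAG-3, TIGIT, BTLA and CD160 sit mainly on T cells and NK cells, BTLA also on B cells, and TIM-3 on T cells and on macrophages and dendritic cells. Their ligands, among them PD-L1 and PD-L2, are displayed by antigen-presenting cells and by tissue cells, and PD-L1 is known to be induced by interferon. Lymphocytes that meet antigen for a long time carry several of these receptors together with the nuclear factor TOX, a state called exhaustion, but the same receptors also appear on freshly activated cells.

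All 10 genes were higher in ALLO than in ISO grafts, by 8.42-fold (Vsir) to 87.0-fold (Havcr2), and in each of them both ALLO libraries lay above both ISO libraries, as in 36.7% of all genes tested (35.9% had both below). All 10 passed the test across all genes, with edgeR adjusted p values of 0.00460 to 0.0277, against a background of 18.4% of 16498 tested genes that passed as higher in ALLO. Their median log2 change was 3.86, beside a median of 0.03 over all genes tested. In whole tissue, more cells of a type and more RNA per cell cannot be told apart. The 12 T cell markers summed to 505 and 441 CPM in the ALLO libraries and to 16.5 and 5.19 CPM in ISO replicates 1 and 2 (CPM, counts scaled to a common library size with TMM normalisation), and the 7 macrophage markers to 7479 and 5337 CPM in ALLO and to 660 and 187 CPM in ISO.

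The libraries held 18978538 and 20194854 counts in ALLO and 18488823 and 17532344 in ISO, with 19987 to 22171 genes detected. ISO replicate 1 stood apart. Its counts of Xist, an X-linked transcript of female cells, were 10647 and of Ddx3y, a Y-linked gene, 0, whereas the other libraries held 0 to 8 and 2105 to 2312. Compared with ISO replicate 2 it was also higher in 12 of 12 T cell, 7 of 7 macrophage, 7 of 7 dendritic cell and 5 of 6 B cell markers, but in 0 of 6 NK cell markers. In ISO replicate 2 the T cell markers Cd3d, Cd3e, Cd3g, Cd8a and Cd8b1 had 0 counts, where they had 10 to 13 in ISO replicate 1 and 486 to 1393 in ALLO. Of the other lists, 6 of 7 macrophage (among them Adgre1, Csf1r and Cd68) and 5 of 6 NK cell markers passed as higher in ALLO. So did 5 of 7 dendritic cell and 1 of 6 B cell markers, against 18.4% of all genes tested. Neutrophil and mast cell markers did so in 1 of 4 and 1 of 5 tested, and endothelial and fibroblast markers in 0 of 6 and 0 of 5. Of the endothelial and fibroblast markers, 4 and 1 passed as lower. Neutrophil markers summed to 296 and 149 CPM in ALLO and to 136 and 12.9 CPM in ISO. The 6 smooth muscle markers, which define the aortic wall (among them Myh11, Acta2 and Cnn1), all passed as lower but were present in every library, at a summed 1097 and 2308 CPM in ALLO and 27128 and 27423 CPM in ISO. Fold changes without ISO replicate 1 or 2 are therefore given for the genes described below where they moved by over 1.5 times, except for Eomes and where the remaining ISO library had 0 counts.

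**Figure D1:**
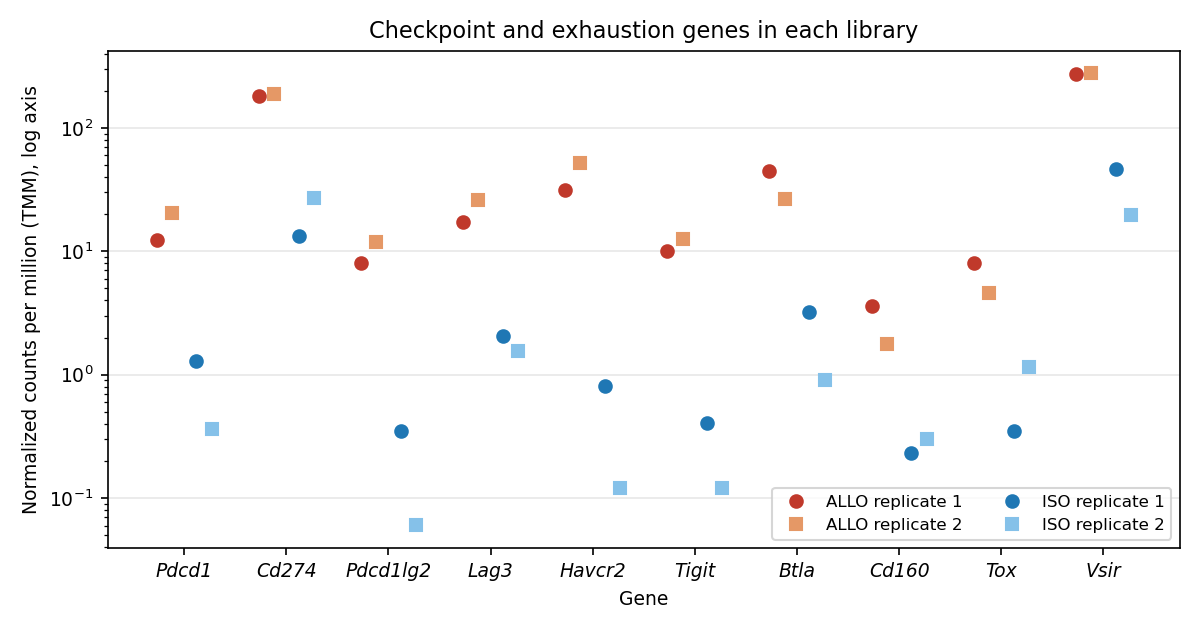
Normalised CPM (log axis) of the 10 genes in each library, with ALLO libraries left of ISO libraries. In every gene both ALLO points lie above both ISO points, and in Havcr2 they reach 31.2 and 51.6 CPM against 0.817 and 0.121 CPM.

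Among the ligands, the PD-L1 gene Cd274 (ENSMUSG00000016496.7, chromosome 19, 29367455 to 29388095, mm10) was the more abundant and the PD-L2 gene Pdcd1lg2 (ENSMUSG00000016498.9, chromosome 19, 29410919 to 29471157) changed by the larger fold. The genes are neighbours on the same strand, 22.8 kb apart with 0 protein-coding genes between them. Both ligands bind PD-1, PD-L1 on many cell types and PD-L2 mostly on dendritic cells and macrophages. Cd274 had 3590 and 4138 counts in ALLO and 226 and 451 in ISO replicates 1 and 2. It averaged 184 ± 4.51 CPM in ALLO and 20.2 ± 9.90 in ISO (SD), 9.21-fold higher, a log2 change of 3.20 ± 0.39 (SE, edgeR adjusted p = 0.00602). Without ISO replicate 2, the ISO library with the higher value, the difference was 13.9-fold. The ALLO libraries thus lay close together while the ISO libraries differed by 1.04 on the log2 scale.

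Pdcd1lg2 had 158 and 262 counts in ALLO and 6 and 1 in ISO. It averaged 9.92 ± 2.76 CPM in ALLO and 0.205 ± 0.205 in ISO, 46.9-fold higher (log2 change 5.55 ± 0.73, edgeR adjusted p = 0.00707). The size of that fold rests on 7 ISO counts, and it was 149-fold without ISO replicate 1 and 27.6-fold without ISO replicate 2. Per length, Cd274 stood 10.3 and 7.17 times above Pdcd1lg2 in ALLO replicates 1 and 2, and 17.1 and 205 times in ISO replicates 1 and 2. In GENCODE M21, 14.1% of the exonic bases of Cd274 overlap an antisense gene, AC119228.1, and whether counting used the strand is unknown, so its counts are uncertain to that extent.

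The 250 bases before the RefSeq starts of these neighbours are shown because the 10 genes were higher together and PD-L1 is known as an interferon-induced gene, those of Havcr2 because it changed most, and those of Btla because it held the other ISRE core match. The build is GRCm38.p6, each run reads 5′ to 3′ on the gene's strand, and capitals mark matches on either strand to 3 motifs: the interferon-gamma element GAS (TTCNNNGAA), the core of the interferon-stimulated response element ISRE (GAAANNGAA) and the AP-1 site (TGANTCA).
Cd274, chr19:29367188-29367437, plus strand: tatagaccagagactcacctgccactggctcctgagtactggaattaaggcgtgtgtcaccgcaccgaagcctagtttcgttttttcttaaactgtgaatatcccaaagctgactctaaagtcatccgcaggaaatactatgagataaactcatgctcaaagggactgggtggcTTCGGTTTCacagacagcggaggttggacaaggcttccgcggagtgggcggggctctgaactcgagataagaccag
Pdcd1lg2, chr19:29410669-29410918, plus strand: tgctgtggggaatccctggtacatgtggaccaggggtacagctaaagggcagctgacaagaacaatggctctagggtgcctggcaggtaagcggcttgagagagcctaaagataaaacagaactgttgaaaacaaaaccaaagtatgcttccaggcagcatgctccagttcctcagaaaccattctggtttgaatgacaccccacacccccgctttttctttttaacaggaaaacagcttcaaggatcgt
Havcr2, chr11:46454681-46454930, plus strand: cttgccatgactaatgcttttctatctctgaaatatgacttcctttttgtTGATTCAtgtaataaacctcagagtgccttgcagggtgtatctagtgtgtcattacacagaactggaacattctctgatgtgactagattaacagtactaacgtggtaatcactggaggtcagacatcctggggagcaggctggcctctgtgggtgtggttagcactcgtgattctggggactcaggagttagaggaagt
Btla, chr16:45224087-45224336, plus strand: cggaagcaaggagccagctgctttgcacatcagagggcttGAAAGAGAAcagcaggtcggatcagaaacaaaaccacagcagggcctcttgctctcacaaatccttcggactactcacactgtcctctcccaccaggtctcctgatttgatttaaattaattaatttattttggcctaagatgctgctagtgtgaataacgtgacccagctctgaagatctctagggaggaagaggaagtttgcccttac

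RefSeq promoters were matched for 8 of the 10 genes, in 9 windows since Cd160 has 2 starts. The Cd274 window held 1 ISRE core, from 76 to 68 bases before the start, Btla held 1 from 210 to 202 bases before it, and Havcr2 held 1 AP-1 site from 200 to 194 bases before it. The Pdcd1lg2 window held none of the 3 marked motifs. In all, 2 of 9 windows held an ISRE core, 1 a GAS (Cd160, from 234 to 226 bases before its start, not shown) and 1 an AP-1 site, while of 32851 promoter windows of the same length 7.13%, 7.02% and 6.75% did. A further motif, the RUNX site (TGTGGT, either strand), was found in 5 of the 9 windows, of Havcr2, Tigit, Btla and Cd160, and in 14.0% of all windows, and the NFAT core (GGAAAA, either strand) in 2 of the 9, of Pdcd1lg2 and Tigit, and in 20.4% of all. Overlaps between the motifs were not removed. These are matches of letters, not sites shown to be bound.

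Of the receptors, Pdcd1 (ENSMUSG00000026285.7, chromosome 1, 94038305 to 94052553), which encodes PD-1, had 246 and 455 counts in ALLO and 22 and 6 in ISO. It averaged 16.5 ± 5.80 CPM in ALLO and 0.823 ± 0.652 in ISO, 20.0-fold higher (log2 change 4.32 ± 0.66, edgeR adjusted p = 0.00997). The ISO libraries differed more than the ALLO libraries, and leaving out ISO replicate 1 or 2 gave 44.8- and 12.7-fold. Lag3 (ENSMUSG00000030124.2, chromosome 6, 124904361 to 124911705), which encodes a CD4-like receptor for MHC class II, had 342 and 580 counts in ALLO and 35 and 26 in ISO. Its 12.1-fold difference (log2 change 3.60 ± 0.37, edgeR adjusted p = 0.00460) had the smallest adjusted p of the 10 and ranged from 9.74- to 14.9-fold with a library left out. Lag3 was therefore, with Cd160, one of 2 genes whose fold did not move by over 1.5 times when any 1 library was left out.

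Havcr2 (ENSMUSG00000020399.14, chromosome 11, 46454935 to 46481255) encodes TIM-3, an inhibitory receptor of T cells and myeloid cells. It had 618 and 1138 counts in ALLO and 14 and 2 in ISO. It averaged 41.4 ± 14.4 CPM in ALLO and 0.469 ± 0.493 in ISO, 87.0-fold higher (log2 change 6.44 ± 0.76, edgeR adjusted p = 0.00551). The fitted fold was 325 without ISO replicate 1, where 2 ISO counts remain, and 49.8 without ISO replicate 2, so its size is poorly fixed while its direction held. Per length, Havcr2 reached 0.0670 and 0.115 of the level of the macrophage growth factor receptor gene Csf1r in ALLO, against 0.0201 and 0.00596 in ISO. Its level per Csf1r was thus higher in both ALLO libraries than in both ISO libraries. This order follows from a fold above the 15.1-fold of Csf1r itself, and the ISO ratios rest on 14 and 2 Havcr2 counts. The share of all genes tested with this order was not computed.

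Tigit (ENSMUSG00000071552.5, chromosome 16, 43648867 to 43664146) and Btla (ENSMUSG00000052013.15, chromosome 16, 45224315 to 45257670) lie on the same chromosome, 1.56 Mb apart. TIGIT competes with the activating receptor CD226 for the ligand CD155, and BTLA binds the TNF receptor family member HVEM. Tigit had 201 and 278 counts in ALLO and 7 and 2 in ISO, 42.0-fold higher (log2 change 5.39 ± 0.60, edgeR adjusted p = 0.00507), and leaving out ISO replicate 1 or 2 gave 89.5- and 27.2-fold. Btla had 881 and 586 counts in ALLO and 55 and 15 in ISO, 17.3-fold higher (log2 change 4.12 ± 0.67, edgeR adjusted p = 0.0114), and the same omissions gave 39.0- and 10.97-fold. Unlike Tigit, Btla was higher in ALLO replicate 1 than in ALLO replicate 2, by 0.74 on the log2 scale. The 6 B cell markers were also all higher in ALLO replicate 1, at a summed 253 CPM against 111 CPM in ALLO replicate 2, and in ISO they summed to 38.6 and 0.663 CPM. Markers of macrophages (6 of 7), NK cells (5 of 6), neutrophils (5 of 5) and T cells (8 of 12) were also mostly higher in ALLO replicate 1. Those of dendritic cells were so in 1 of 7. The part of any of these cells in the Btla difference was not tested.

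Cd160 (ENSMUSG00000038304.14, chromosome 3, 96798763 to 96829351), a glycosylphosphatidylinositol-anchored receptor of NK cells and cytotoxic T cells that also binds HVEM, was the least counted of the 10. It had 71 and 39 counts in ALLO and 4 and 5 in ISO, 9.89-fold higher (log2 change 3.31 ± 0.72, edgeR adjusted p = 0.0240). It no longer passed without ALLO replicate 1 (6.62-fold; edgeR adjusted p = 0.117), without ISO replicate 1 (8.71-fold, 0.0824) and without ISO replicate 2 (11.1-fold, 0.0717). NK cell markers summed to 76.3 and 65.1 CPM in ALLO and 3.44 and 8.20 CPM in ISO, the same order within each group as Cd160, and their part was not tested. A share of 2.57% of the exonic bases of Cd160 overlaps the opposite-strand gene Pdzk1, which had 0 to 2 counts per library.

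Vsir (ENSMUSG00000020101.14, chromosome 10, 60346851 to 60372684), which encodes VISTA, an inhibitory B7 family member of myeloid cells and resting T cells, was the most abundant of the 10 in CPM and per length. It had 5451 and 6105 counts in ALLO and 793 and 328 in ISO. It averaged 276 ± 1.15 CPM in ALLO and 33.0 ± 18.8 in ISO, 8.42-fold higher (log2 change 3.07 ± 0.45, edgeR adjusted p = 0.00899). It was 13.9-fold higher without ISO replicate 1. Per length its level was 0.321 and 0.335 of that of Csf1r in ALLO, against 0.617 and 0.531 in ISO. Relative to Csf1r, Vsir was thus lower in both ALLO libraries, the opposite order to Havcr2. Csf1r itself was 15.1-fold higher in ALLO, so genes that rose by less, such as Vsir, fall relative to it. The share of all genes tested that did so was not computed.

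Tox (ENSMUSG00000041272.11, chromosome 4, 6686353 to 6991557), the nuclear factor that sustains the exhausted state, had 159 and 102 counts in ALLO and 6 and 19 in ISO. It averaged 6.32 ± 2.40 CPM in ALLO and 0.748 ± 0.562 in ISO, 8.50-fold higher (log2 change 3.09 ± 0.71, edgeR adjusted p = 0.0277). This was the largest adjusted p of the 10, and leaving out ALLO replicate 1 ended the call (6.26-fold, with an edgeR adjusted p of 0.103). Leaving out ISO replicate 1 or 2 gave 5.50- and 17.6-fold. An antisense gene, Gm11802, that overlaps 3.42% of its exonic bases had 0 counts in every library.

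**Figure D2:**
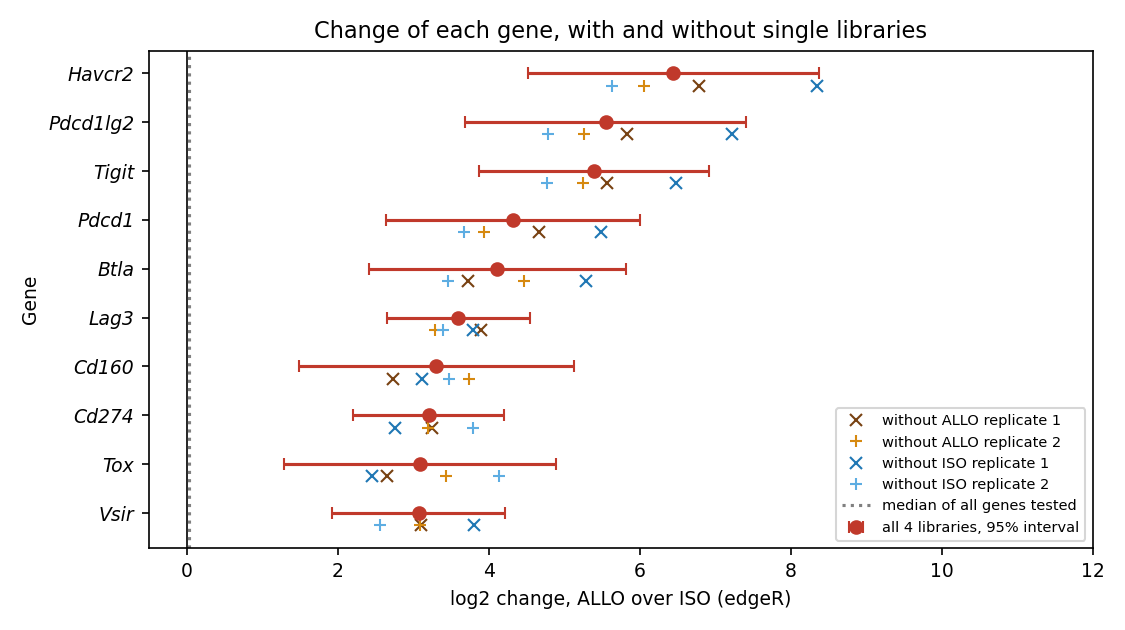
log2 change of each gene, ALLO over ISO, with its 95% interval from edgeR (red) and the value with each library left out (crosses and plus signs), ordered by size. All intervals lie above 0 and the changes run from 3.07 for Vsir to 6.44 for Havcr2, which moves to 8.35 without ISO replicate 1.

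Compared per length, the order of the genes was led by Vsir and Cd274 in both groups. In ALLO, Vsir averaged 55.0 ± 0.228 and Cd274 50.9 ± 1.25 CPM per kilobase of exon (SD), and their libraries did not overlap. They were followed by Havcr2 (15.2 ± 5.30), Tigit (12.4 ± 1.89), Btla (10.5 ± 3.73), Lag3 (10.3 ± 3.03), Pdcd1 (8.56 ± 3.01) and Pdcd1lg2 (6.03 ± 1.68), each of which overlapped its neighbour in this order. Cd160 (1.01 ± 0.486) and Tox (0.831 ± 0.316) came last, clear of Pdcd1lg2 but not of each other. In ISO, Vsir (6.59 ± 3.74) and Cd274 (5.58 ± 2.73) overlapped each other and lay clear of Lag3 (0.856 ± 0.159), and below Lag3 every neighbour overlapped the next. Havcr2 ranked 3 in ALLO and 7 in ISO, and Lag3 ranked 6 in ALLO and 3 in ISO.

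Together, Cd274 and Vsir made up 64.6% and 59.7% of the summed per-length level of the 10 genes in ALLO and 77.8% and 87.2% in ISO. Vsir led Cd274 in ISO replicate 1 (55.8% and 22.0%), but in ISO replicate 2 Cd274 led (57.2% and 30.0%). Among genes tested, the CPM of Cd274 was above that of 95.2% in ALLO and 54.9% in ISO, and that of Pdcd1 above 48.1% in ALLO and 13.4% in ISO. The summed level was 162 and 179 in ALLO against 16.5 and 13.1 in ISO.

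**Figure D3:**
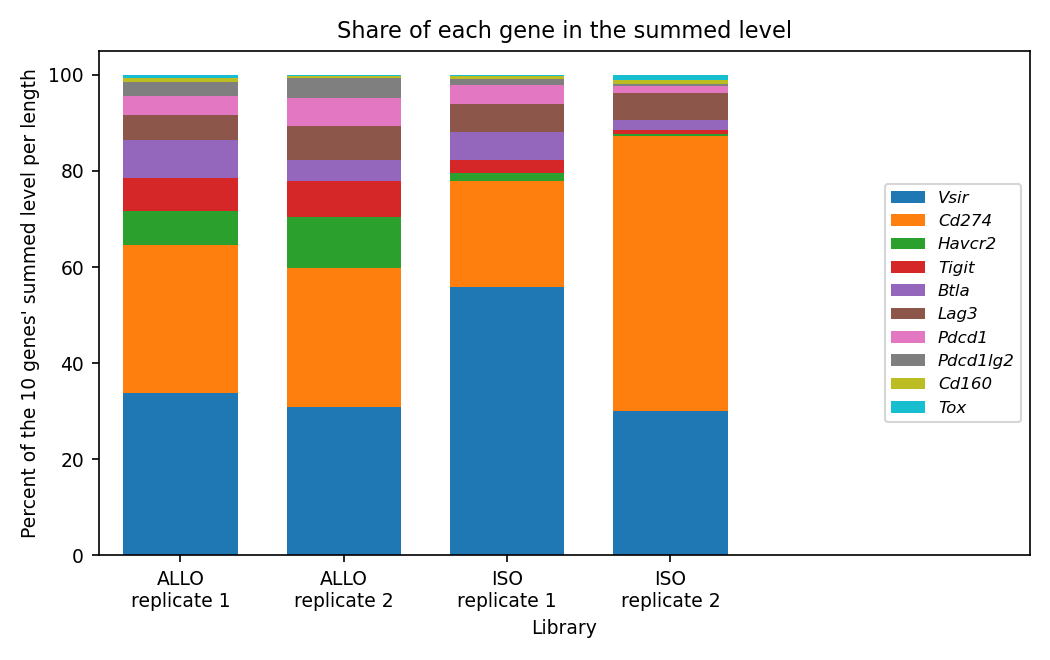
Share of each gene, in percent, of the summed CPM per kilobase of exon of the 10 genes in each library, with ALLO libraries at the left. Cd274 and Vsir take 59.7% to 64.6% in ALLO and 77.8% to 87.2% in ISO.

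Within the groups the genes did not move as a block. In ISO, 7 of the 10 were higher in replicate 1 than in replicate 2, by up to 2.76 on the log2 scale (Havcr2), and 3 were lower, Cd274 by -1.04, Cd160 by -0.37 and Tox by -1.71. In ALLO, replicate 1 was lower for 7 genes and higher for Btla, Cd160 and Tox (0.74, 1.02 and 0.80). Cd160 and Tox thus ran against the majority of the 10 in both groups, although Cd160 had only 4 and 5 counts in ISO. The majority in ALLO included Cd274 (-0.05) and Vsir (-0.0085), which barely differed between the libraries. The T cell markers were higher in ALLO replicate 1 in 8 of 12 cases. The smooth muscle markers were lower in ALLO replicate 1 in 6 of 6 cases. These differences between single libraries carry no test.

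The counts of the genes were also divided by the summed counts of 12 T cell markers in the same library. These sums were 10018 and 9736 in ALLO and 282 and 86 in ISO. In ISO replicate 2, Cd247 gave 22 of the 86, Trac 18, Lck 16, Cd2 14 and Zap70 10. Cd8a and Cd8b1 had 0 counts there, while NK cell markers summed to more than in ISO replicate 1. Which cells gave these 86 counts was not tested, so the sum is not a sure measure of T cells in that library. The CD3 genes themselves could not serve, since Cd3d, Cd3e and Cd3g summed to 1994 and 1976 counts in ALLO and to 37 and 0 in ISO. Per 100 T cell marker counts, Pdcd1 had 2.46 and 4.67 counts in ALLO and 7.80 and 6.98 in ISO. Lag3 had 3.41 and 5.96 in ALLO and 12.4 and 30.2 in ISO. Both ALLO values of these receptor genes lay below both ISO values, as they did in 92.9% of all genes tested on this scale. Havcr2 had 6.17 and 11.7 in ALLO and 4.96 and 2.33 in ISO, and was the only 1 of the 10 with both ALLO values above both ISO values, which 2.38% of all genes tested showed. Tigit had 2.01 and 2.86 in ALLO and 2.48 and 2.33 in ISO, and it overlapped, as did Pdcd1lg2. Vsir, a gene of myeloid cells as well, had 54.4 and 62.7 in ALLO and 281 and 381 in ISO. Tox had 1.59 and 1.05 in ALLO and 2.13 and 22.1 in ISO. Cd274 had 35.8 and 42.5 in ALLO and 80.1 and 524 in ISO, and Cd160 0.709 and 0.401 in ALLO and 1.42 and 5.81 in ISO. In Vsir, Tox, Cd274 and Cd160 the higher ISO value was that of ISO replicate 2, with its 86 marker counts. In all, 7 of the 10 had both ALLO values below both ISO values, against 92.9% of all genes tested, so this order was the background on this scale.

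When edgeR was fitted with the libraries scaled to these markers, 4 of the 10 genes passed as lower in ALLO and 0 as higher, where 90.8% of all genes tested passed as lower and 0.879% as higher. The 4 were Tox (log2 change -3.12, 95% interval -5.54 to -0.69, edgeR adjusted p = 0.0132), Cd274 (-2.94, -5.22 to -0.66, 0.0128), Cd160 (-2.53, -4.93 to -0.13, 0.0429) and Vsir (-2.50, -4.75 to -0.25, 0.0326). None of the 4 passed when either ALLO library was left out. For the others the interval was -4.46 to 0.14 for Lag3, -3.56 to 0.92 for Btla, -3.35 to 1.23 for Pdcd1, -2.39 to 2.40 for Tigit, -2.16 to 2.70 for Pdcd1lg2 and -1.15 to 3.57 for Havcr2. These intervals leave room for several-fold differences in both directions for Tigit and Pdcd1lg2. The counting error of the 86 marker counts of ISO replicate 2 is not part of this test.

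**Figure D4:**
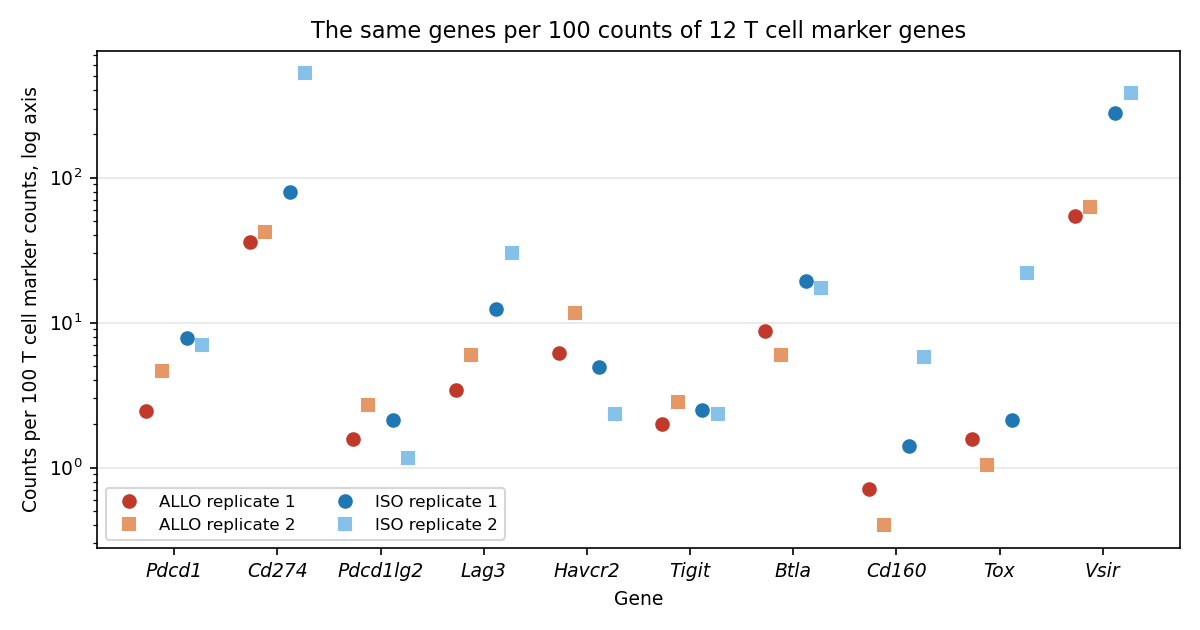
Counts of each gene per 100 summed counts of 12 T cell markers in the same library (log axis), ALLO libraries left of ISO libraries. Havcr2 lies higher in both ALLO libraries (6.17 and 11.7 against 4.96 and 2.33), and 7 genes lie lower in both, where 92.9% of all genes tested do.

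The partners of these receptors, their ligands, ligand receptors and competitors, were mostly higher in ALLO too. Of 17 tested, 10 passed as higher and 1 as lower (median log2 change 3.32), where 18.4% and 14.8% of all genes did. The MHC class II genes H2-Aa, H2-Eb1 and H2-Ab1, whose products LAG-3 binds, were 37.9-, 42.9- and 36.1-fold higher (edgeR adjusted p = 0.00321, 0.00396 and 0.00450), values that are uncertain as far as reads of related class II genes were split or lost. Cd226, the activating competitor of TIGIT, had 19.5 and 12.6 CPM in ALLO and 0.525 and 0.482 in ISO, 31.8-fold higher (edgeR adjusted p = 0.00364). Per length, Cd226 stood at 0.751 and 0.390 of Tigit in ALLO and at 0.501 and 1.56 in ISO, so the groups overlapped in this ratio.

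Tnfrsf14, which encodes HVEM, had 33.6 and 24.3 CPM in ALLO and 2.57 and 2.35 in ISO, 11.9-fold higher (edgeR adjusted p = 0.00364). Cd80, whose product binds PD-L1 on the same membrane as well as CD28 and CTLA-4, had 18.4 and 23.8 CPM in ALLO and 2.80 and 1.45 in ISO, 9.97-fold higher (edgeR adjusted p = 0.00667). For both genes the ALLO libraries lay above the ISO libraries, as in 36.7% of all genes tested. Nectin3, an adhesion molecule that TIGIT also binds, was the member that fell, at 12.3 and 11.8 CPM in ALLO and 22.7 and 32.4 in ISO (log2 change -1.18 ± 0.27, edgeR adjusted p = 0.0284). It did not pass without ALLO replicate 1 (-1.19, edgeR adjusted p = 0.0820), ALLO replicate 2 (-1.13, 0.0829) or ISO replicate 2 (-0.92, 0.135). The TIGIT ligand gene Pvr, which encodes CD155, gave -0.37 ± 0.25 (edgeR adjusted p = 0.322). Ceacam1, a reported partner of TIM-3, gave -0.07 ± 0.47 (edgeR adjusted p = 0.927). Rgmb, whose product binds PD-L2, gave -0.92 ± 0.26 (edgeR adjusted p = 0.0507). None of these 3 passed with all libraries. The log2 change of Rgmb ran from -0.59 without ALLO replicate 1 to -1.28 without ALLO replicate 2. The direction of Ceacam1 turned with library size as the only scaling (0.12).

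Other inhibitory receptors gave 11 of 14 that passed as higher and 1 as lower, where 18.4% and 14.8% of all genes tested did. Their median log2 change was 4.76, or 4.27 with Sit1, which had 0 counts in both ISO libraries, at its bound. Sit1, an adaptor of T cells, had 83 and 124 counts in ALLO, at least 13.8-fold higher, taking 6 counts per ISO library as the floor. Lair1, a collagen receptor of leukocytes, had 131 and 125 CPM in ALLO and 2.74 and 2.65 in ISO, 47.7-fold higher (edgeR adjusted p = 0.00214). Ctla4, which competes with CD28 for B7 ligands, had 541 and 823 counts in ALLO and 9 and 1 in ISO, 108-fold higher (edgeR adjusted p = 0.00479), or 484-fold without ISO replicate 1 and 60.3-fold without ISO replicate 2. Per length, Ctla4 stood at 1.82 and 1.498 times Pdcd1 in ALLO and at 0.339 and 0.138 of it in ISO. These receptors were thus in the opposite order in the groups. In ISO that order rests on 9 and 1 counts of Ctla4 against 22 and 6 of Pdcd1, and it was not tested.

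Cd5, a negative regulator of antigen receptor signals, was 47.9-fold higher (edgeR adjusted p = 0.00479), or 114-fold without ISO replicate 1 and 29.9-fold without ISO replicate 2. Cd200r1, a myeloid and T cell receptor for CD200, had 428 and 459 counts in ALLO and 6 and 0 in ISO, 116-fold higher (edgeR adjusted p = 0.00638), or 59.1-fold without ISO replicate 2, while ISO replicate 2 alone, at 0 counts, gives no fold. The adaptor gene Lax1 was 7.72-fold and the scavenger-type receptor gene Cd6 7.81-fold higher (edgeR adjusted p = 0.00634 and 0.00710). Entpd1, which encodes the ectoenzyme CD39 of exhausted and regulatory T cells and of vessel wall cells, fell, at 177 and 175 CPM in ALLO and 368 and 424 in ISO (log2 change -1.16 ± 0.21, edgeR adjusted p = 0.0147). That call was lost without ISO replicate 1 (-1.27, edgeR adjusted p = 0.0537) and without ISO replicate 2 (-1.08, 0.101).

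**Figure D5:**
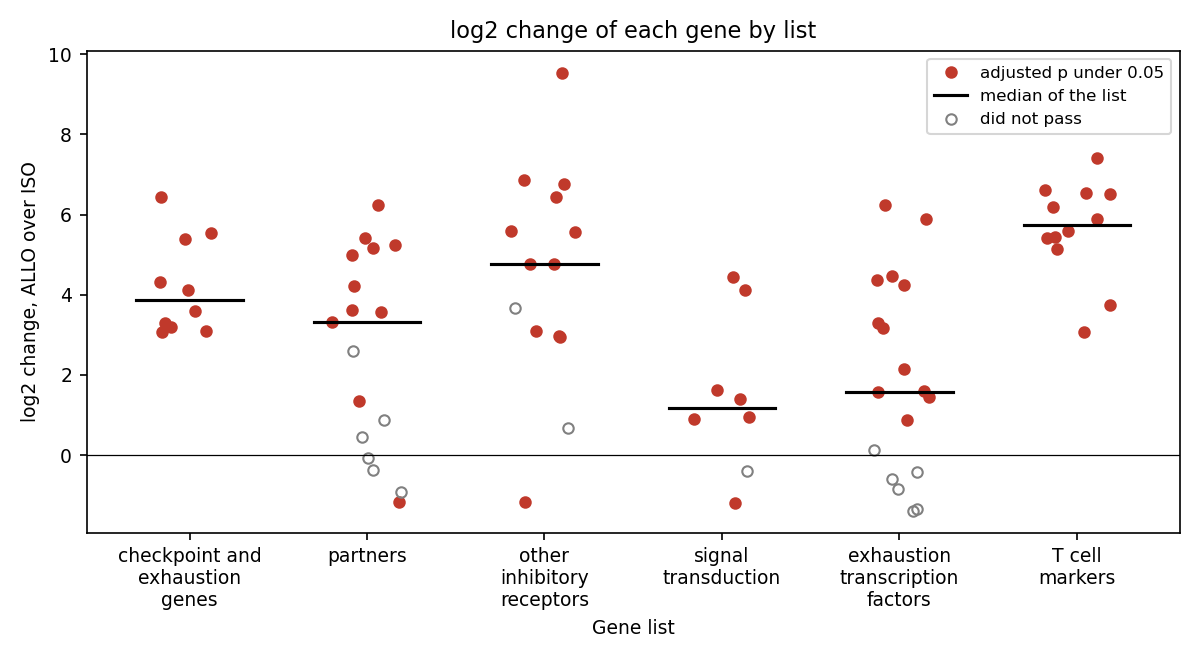
log2 change of each gene, ALLO over ISO, for the 10 genes and 5 comparison lists, with filled points for edgeR adjusted p under 0.05, open points for genes that did not pass and a bar at each list's median. The medians are 3.86 for the 10 genes, 3.32 for their partners, 4.76 for other inhibitory receptors, 1.17 for signal transduction, 1.58 for exhaustion transcription factors and 5.73 for T cell markers, and Sit1 is drawn at its fitted value although it had 0 counts in ISO.

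Of 8 genes tied to inhibitory signalling inside the cell, 6 passed as higher and 1 as lower, where 18.4% and 14.8% of all genes tested did. Their median log2 change was 1.17. The 2 phosphatases that PD-1 recruits differed in direction. Ptpn6, which encodes SHP-1 and is mainly expressed by blood cells, had 179 and 180 CPM in ALLO and 12.6 and 4.16 in ISO, 21.6-fold higher (edgeR adjusted p = 0.00670), or 43.1-fold without ISO replicate 1 and 14.2-fold without ISO replicate 2. Ptpn11, which encodes the widely expressed SHP-2, had 132 and 137 CPM in ALLO and 281 and 340 in ISO (log2 change -1.20 ± 0.21, edgeR adjusted p = 0.0140), and did not pass without ISO replicate 2 (-1.07, edgeR adjusted p = 0.0957).

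Inpp5d, the lipid phosphatase SHIP-1 of blood cells, was 17.4-fold higher (edgeR adjusted p = 0.00532), or 29.3-fold without ISO replicate 1. The kinase gene Csk and the ubiquitin ligase gene Cblb were 3.06- and 2.63-fold higher (edgeR adjusted p = 0.0151 and 0.00579). The diacylglycerol kinase genes Dgka and Dgkz were 1.93- and 1.85-fold higher (edgeR adjusted p = 0.0245 and 0.0313), but Dgka did not pass without ALLO replicate 1, ISO replicate 1 or ISO replicate 2 (0.0504 to 0.131) and Dgkz not without ALLO replicate 2, ISO replicate 1 or ISO replicate 2 (0.0593 to 0.274). Bag6, whose product binds the tail of TIM-3, gave -0.39 ± 0.22 (edgeR adjusted p = 0.239). Leaving out ISO replicate 2 left 3 of the 8 genes past the threshold, with Csk, Dgka, Dgkz and Ptpn11 lost.

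Of 18 transcription factors tied to exhaustion and its precursor states, 12 passed as higher and 0 as lower, where 18.4% and 14.8% of all genes tested did. Their median log2 change was 1.58, beside 0.03 over all genes tested. Nfatc2, a calcium-driven factor upstream of checkpoint gene transcription, had 76.1 and 75.2 CPM in ALLO and 8.87 and 6.57 in ISO, 9.87-fold higher (edgeR adjusted p = 0.00283). The T-box factor genes Eomes and Tbx21 had 100 and 107, and 173 and 206 counts in ALLO, against 2 and 0, and 5 and 0 counts in ISO (edgeR adjusted p = 0.00900 and 0.0108). The Eomes ratio was 83.3, with a 95% counting interval of 14.6 to 3322, and Tbx21 was 59.1-fold higher, or 30.1-fold without ISO replicate 2. Both genes still passed with either ISO library left out, but with 0 counts in ISO replicate 2 no fold is given against that library alone. Bach2, Bhlhe40 and Ikzf2 were 4.44-, 2.95- and 2.71-fold higher (edgeR adjusted p = 0.00963, 0.00506 and 0.0140), and Ikzf2 did not pass without ISO replicate 1 (2.46-fold, 0.0509).

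The NR4A factors, which act with TOX in exhausted T cells and are also immediate early genes of many tissues, did not pass with all libraries. Nr4a3 gave -1.39 ± 0.41 (edgeR adjusted p = 0.0545) and Nr4a1 -0.84 ± 0.29 (0.0795). Id3 and Id2, inhibitors of E proteins, gave -1.34 ± 0.47 (edgeR adjusted p = 0.0838) and -0.43 ± 0.19 (0.149). Leaving out ALLO replicate 2 brought 3 of these 4 genes past the threshold as lower, Nr4a3 (-2.08, edgeR adjusted p = 0.0141), Id3 (-2.04, 0.0353) and Nr4a1 (-1.17, 0.0414). Leaving out ISO replicate 1 gave a call for Nr4a3 (-1.52, edgeR adjusted p = 0.0462) and Id3 (-1.67, 0.0465). The Tox paralogue Tox2, named after its values were seen, gave -0.60 ± 0.39 (edgeR adjusted p = 0.287) and had 93 and 76 counts in ALLO and 92 and 118 in ISO. In CPM both ALLO libraries of Tox2 lay below both ISO libraries, as in 35.9% of all genes tested. This is the opposite order to Tox, for a gene that did not pass.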

How the data were processed

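Whole-graft RNA was sequenced in 2 ALLO and 2 ISO libraries. The authors deposited raw counts per gene and a gene length column, with featureCounts columns per the file headers. Subread 1.6.4, featureCounts, mm10, R 4.0.3 and DESeq2 1.30.0 appear in the submitters' processing notes. Aligner, annotation release and strand setting were not given in the sources used here. Symbols came from GENCODE M21 and matched 54723 of 54752 gene IDs. Of genes with 1 to 20 counts, 68.0% to 74.6% per library had an even count, as when both mates of a read pair are counted, so counting intervals use counts divided by 2 and the floor for a gene at 0 is 6 counts per library. These cover counting error only, and the labels mention no molecular identifiers.

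After filterByExpr (minimum count 10) 16498 genes remained and were scaled by TMM (factors 0.926 to 1.09) and tested with edgeR 4.0.16 (glmQLFit, glmQLFTest, group as the only term) in R 4.3.3, two-sided, with Benjamini-Hochberg adjusted p under 0.05 over all genes. The procedure was tested on simulated data. Replicates differed by more than sampling noise (chi-square over degrees of freedom 107 in ALLO and 31.4 in ISO). The members and gene lists, and most tests, were chosen with earlier results of these data known. Scaling to CD3 counts was planned but could not be done at 0 counts, and 12 T cell markers replaced it after the data had been seen. Named genes were every member, all genes of lists of up to 8, otherwise up to 6 by adjusted p in a list's commoner direction and up to 4 against it, and the first 3 genes and summed level of marker lists. Alternatives used DESeq2 1.42.0 and limma 3.58.1.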

Additional observations from a re-analysis of the deposited data

How the results depend on the processing

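Under 14 alternatives (other scalings, filters and tests, a replicate block, each library left out, halved counts, and antigen receptor genes removed) the log2 change of the 10 genes kept its direction in all 140 values and its side of the threshold in 136, the exceptions being Cd160 (3) and Tox (1) with a library left out. All 10 passed in 10 of the alternatives that kept every library, and 8 to 10 with a library left out. Of 798 values for the genes of the 4 comparison lists, 731 kept both, 27 lost and 34 gained the threshold and 6 turned. The log2 change of Ceacam1 turned with library size only (0.12) and ran from -0.55 (without ALLO replicate 1) to 0.47 (without ISO replicate 1), also turning without ALLO replicate 2 (0.32). The log2 change of Fgl1 ran from -0.42 (without ISO replicate 2) to 2.93, and the log2 change of Nr4a2 from -0.11 (without ISO replicate 1) to 0.40, with -0.025 without ALLO replicate 2. None of the 6 had passed. All genes past the threshold numbered 5469, and 3603 to 4651 with a library left out, of which 3417 without ISO replicate 2 were among the 5469. Signal transduction genes past the threshold numbered 7, and 3 to 6 with a library left out. Scaling by library size only gave 3546 higher and 1867 lower (65.5% higher) against 3032 and 2437 (55.4%), and moved the median of all genes by 0.19.

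With the replicate number as a block, in labels that do not say what a shared number means, all 10 genes passed, as without it. Scaling to CD3 counts could not be fitted. Relative to T cell markers, 2 of the 10 passed with the replicate block, against 4 without, and 0 to 5 with a library left out. The log2 change relative to T cell markers of Tigit turned without Cd2 and Cd247 among the markers (-0.52), with halved counts (-0.14), limma-voom (-0.21) and the replicate block (-0.049), and ran from -0.27 (without ALLO replicate 2) to 0.24 with a library left out, with -0.030 without ISO replicate 2. The log2 change relative to T cell markers of Pdcd1lg2 turned without Cd2 and Cd247 (-0.24) and ran from -0.15 (without ALLO replicate 2) to 0.87. These 2 genes had not passed, and the causes were not tested. The deviations of same-numbered libraries from their group means were nearly uncorrelated over genes (correlation 0.097). Low ISO counts (1 to 22 per library in Pdcd1, Pdcd1lg2, Havcr2, Tigit, Cd160 and Tox) limit how well their folds are fixed.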
